A study of Mus musculus with 6 samples.

Results

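The 3 mouse teashirt genes, Tshz1, Tshz2 and Tshz3, were found by their symbols among 55416 gene rows of the count table, and all 3 were measured in each of the 6 hippocampal libraries. Mice of the EU group received ethynyluridine (EU), a clickable uridine analogue that enters new RNA, under the skin at 50 mg/kg daily on postnatal days 3 to 5, and mice of the PBS group an equal volume of phosphate-buffered saline (PBS). Hippocampi were collected at postnatal day 36. RNA of both groups was put through the click reaction with biotin and the capture on streptavidin. The PBS libraries thus show what the capture brings down without label. The groups held 3 EU and 3 PBS libraries of 39886723 to 58301239 counts. PBS replicate 2 was least like the others, with 19243 genes detected against 23816 to 26372 and a mean correlation of log2 CPM of 0.938 against 0.970 to 0.977. Strain, sex and litter are not given in the labels, nor is it said that each library came from a separate animal, so the spread between libraries may be partly technical. The family was selected on the EU and PBS levels in these libraries, since Tshz3 was among the genes with the smallest p between them. That contrast is therefore described for the members and not tested.

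Teashirt proteins are zinc finger transcription factors, first found in Drosophila, where teashirt gives trunk segments their identity. The vertebrate proteins also carry a homeodomain and act mainly as transcriptional repressors, in part through the co-repressor CtBP. In the mouse, Tshz3 is needed for smooth muscle of the ureter and for projection neurons that run from the cortex to the striatum. Mouse Tshz1 acts in olfactory bulb interneurons and in striatal neurons, and Tshz2 marks near-projecting neurons of the deep cortical layers.

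In the coordinates of the table (GRCm39), Tshz3 (ENSMUSG00000021217) runs from 36397543 to 36472978 on chromosome 7, plus strand, a span of 75436 bases. Tshz2 (ENSMUSG00000047907) runs from 169474933 to 169913736 on chromosome 2, plus strand, a span of 438804 bases. In the GENCODE M21 annotation the longest transcript of each gene has 2 exons, and it measures 5098 bases for Tshz3, 5083 for Tshz2 and 5656 for Tshz1. Almost all of each span is therefore intron, and whether intronic reads were counted is not stated.

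The promoters of Tshz3 and Tshz2, the members with the higher EU values below, are shown because they differ in letters. Each is 300 bases from RefSeq, in GRCm38.p6, 5′ to 3′ on the plus strand, from 250 bases before to 50 after the RefSeq start. Capitals mark CG dinucleotides. The Tshz3 window is chr7:36697868-36698167 and the Tshz2 window is chr2:169632259-169632558.
Tshz3: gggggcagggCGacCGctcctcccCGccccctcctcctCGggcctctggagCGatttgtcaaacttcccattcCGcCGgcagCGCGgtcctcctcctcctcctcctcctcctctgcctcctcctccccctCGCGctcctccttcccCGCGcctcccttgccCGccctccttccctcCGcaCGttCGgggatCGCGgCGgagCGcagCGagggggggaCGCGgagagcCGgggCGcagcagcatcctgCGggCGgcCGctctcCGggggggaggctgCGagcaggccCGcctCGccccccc
Tshz2: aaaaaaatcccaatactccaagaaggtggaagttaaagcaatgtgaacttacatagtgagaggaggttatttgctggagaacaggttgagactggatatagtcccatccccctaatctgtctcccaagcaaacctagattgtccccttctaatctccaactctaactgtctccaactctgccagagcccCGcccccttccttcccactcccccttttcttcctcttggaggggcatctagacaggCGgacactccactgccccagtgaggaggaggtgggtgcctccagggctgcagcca
The Tshz3 window held 33 CG dinucleotides and a GC content of 76.0%, and 8.56% of 32851 RefSeq promoters of that length held as many. The Tshz2 window held 2, with a GC content of 52.0%, against a median of 7 over all promoters. Searched on both strands, the letters GGGCGG, which contain a CG, occurred 3 times for Tshz3 and 1 time for Tshz2, and 35.7% of promoters held them. The letters TATAAA occurred 0 times in both windows, and 13.6% of promoters held them. The RefSeq span of Tshz3 has the same length as in the table, while that of Tshz2 is 440243 bases, so the Tshz2 start may differ from the one the table used.

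Tshz3 stood higher in every EU library than in any PBS library. In CPM, the depth-scaled count with library sizes corrected by TMM factors, it had 29.6, 38.6 and 40.1 in EU replicates 1, 2 and 3, against 19.4, 17.8 and 20.4 in PBS replicates 1, 2 and 3. The groups did not overlap, and the lowest EU value was that of replicate 1. The raw counts were 1525, 1547 and 1687 in EU and 913, 766 and 1174 in PBS, so they too were higher in each EU library, although PBS replicate 3 was the deepest library of the 6. Tshz3 averaged 36.1 ± 5.67 CPM in EU libraries and 19.2 ± 1.31 CPM in PBS libraries (SD, n = 3 each). By edgeR this was a log2 fold of EU over PBS of 0.91 (SE 0.124), or 1.88-fold, above that of 95.8% of genes tested.

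Tshz2, the most abundant member, was also higher in each EU library, with a narrower gap. It had 161, 148 and 186 CPM in EU replicates 1, 2 and 3, against 80.7, 131 and 104 CPM in PBS replicates 1, 2 and 3. The groups did not overlap, but PBS replicate 2 came close to EU replicate 2. Tshz2 averaged 165 ± 19.0 CPM in EU libraries and 105 ± 25.2 CPM in PBS libraries (SD, n = 3 each). This was a log2 fold of 0.65 (SE 0.152), or 1.57-fold, above that of 92.7% of genes tested.

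Tshz1 (ENSMUSG00000046982; GRCm39 chromosome 18, minus strand, 84029752 to 84105831, a span of 76080 bases) overlapped between the groups. It had 35.1, 40.8 and 34.2 CPM in EU replicates 1, 2 and 3, against 39.1, 29.6 and 33.9 CPM in PBS replicates 1, 2 and 3. Its highest value was in EU replicate 2 and its lowest in PBS replicate 2, with PBS replicate 1 above the remaining EU libraries. Tshz1 averaged 36.7 ± 3.62 CPM in EU libraries and 34.2 ± 4.77 CPM in PBS libraries (SD, n = 3 each). This was a log2 fold of 0.10 (SE 0.115), above that of 66.5% of genes tested.

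**Figure D1:**
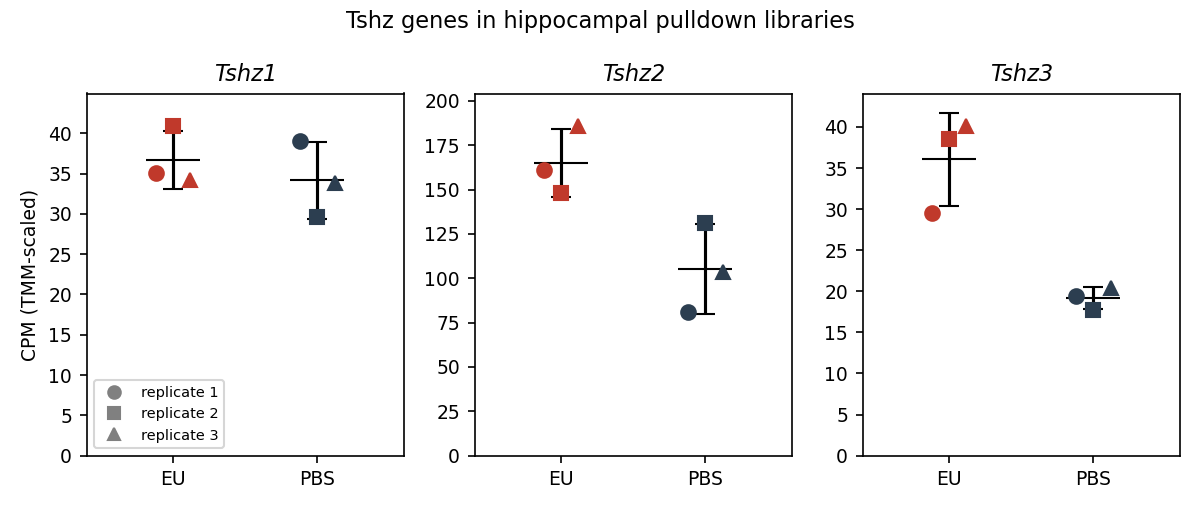
TMM-scaled CPM of Tshz1, Tshz2 and Tshz3 in the 3 EU and 3 PBS libraries, with points for libraries, horizontal bars for means and whiskers for the SD. All 3 EU points lie above all 3 PBS points for Tshz3 and Tshz2, while those of Tshz1 overlap.

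Of the 3 members, 2 had CPM that did not overlap and were higher in EU, where 8.52% of the 18511 genes tested did. At an adjusted p under 0.05 in edgeR's quasi-likelihood test, 0 of 3 members were called, where 0% of genes tested were called. Before adjustment 1459 genes had a p under 0.05. DESeq2 called 1 member, Tshz3, where 1.56% of genes tested were called (288), and limma voom 0 members, where 0.0648% were (12). Without a filter on low counts edgeR called 2 members, Tshz3 and Tshz2, where 0.797% of genes were called, and so it did without PBS replicate 2, where 0.103% were. With the replicate number as a block it called Tshz3, where 0.0972% of genes were called. Since the members were proposed from this contrast, nothing is read from these counts.

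The spread of the members between libraries was wider than the counting of reads gives. For Tshz2 the coefficient of variation (SD over mean) was 11.5% in EU and 24.0% in PBS, where its counts alone give 1.17% and 1.39%. For Tshz3 it was 15.7% in EU and 6.81% in PBS, where counts alone give 2.51% and 3.24%. For Tshz1 it was 9.87% in EU and 14.0% in PBS, where counts alone give 2.48% and 2.43%. Over 5892 tested genes with a mean of 20 to 160 CPM, the median coefficient of variation was 4.69% in EU and 7.67% in PBS. Tshz2 and Tshz1 thus varied more than the median gene within both groups, and Tshz3 did so only within EU. The libraries carry no stated molecular identifiers, so reads may be copies of 1 molecule and these values cover counting error only.

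Ratios of raw counts within a library do not depend on how libraries are scaled. Tshz3 over Tshz1 was 0.844, 0.944 and 1.17 in EU replicates 1, 2 and 3, against 0.497, 0.602 and 0.601 in PBS replicates 1, 2 and 3, and did not overlap. The family was selected on the Tshz3 counts used here, and Tshz1 had a log2 fold of only 0.10. That separation therefore restates the choice of Tshz3 and is no support of its own. Tshz2 over Tshz3 was 5.43, 3.85 and 4.63 in EU replicates 1, 2 and 3, against 4.15, 7.37 and 5.09 in PBS replicates 1, 2 and 3, and overlapped. The highest of the 6 values of Tshz2 over Tshz3 was that of PBS replicate 2, in which Tshz3 was lowest and Tshz2 the highest of the PBS group. Tshz2 over Tshz1 was 4.59, 3.63 and 5.43 in EU replicates 1, 2 and 3, against 2.07, 4.44 and 3.06 in PBS replicates 1, 2 and 3. That ratio also overlapped between the groups.

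**Figure D2:**
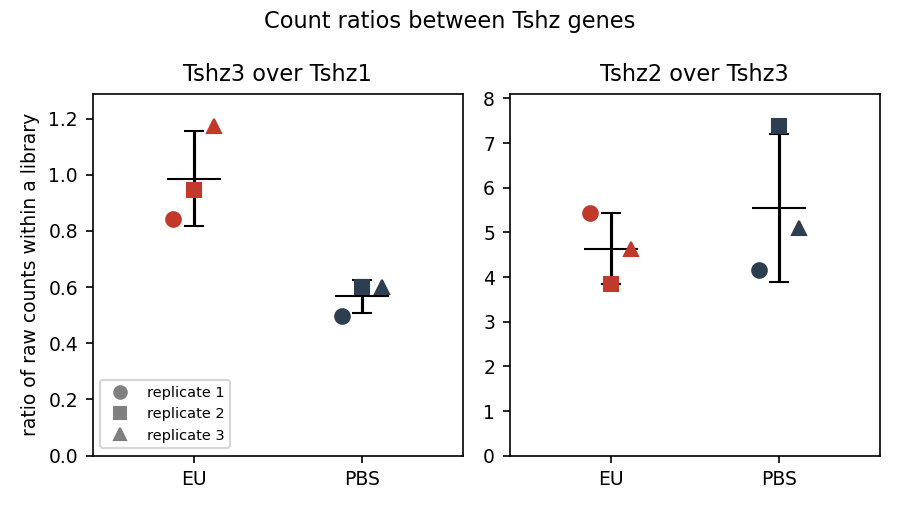
Ratio of raw counts within each library, Tshz3 over Tshz1 and Tshz2 over Tshz3, in the EU and PBS groups, with bars for means and whiskers for the SD. Tshz3 over Tshz1 lies between 0.844 and 1.17 in EU and between 0.497 and 0.602 in PBS, while Tshz2 over Tshz3 overlaps. The family was selected on the Tshz3 levels in these libraries.

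Per kilobase of the longest transcript, Tshz2 had the highest level in every library. It averaged 32.4 ± 3.73 CPM per kilobase in EU libraries and 20.7 ± 4.96 in PBS libraries (SD, n = 3 each). Tshz3 averaged 7.08 ± 1.11 CPM per kilobase in EU and 3.77 ± 0.256 in PBS, and Tshz1 averaged 6.49 ± 0.640 in EU libraries and 6.04 ± 0.843 in PBS libraries (SD, n = 3 each). In EU, Tshz3 and Tshz1 did not differ beyond their spread, at 5.80 to 7.86 and 6.04 to 7.22 CPM per kilobase. In PBS, Tshz3 lay below Tshz1, at 3.49 to 3.99 against 5.23 to 6.91. With the union of all annotated exons as the length, which is 7781 bases for Tshz2, that gene averaged 21.2 CPM per kilobase in EU and 13.5 in PBS and remained the highest. In mean CPM over the 6 libraries, Tshz2 lay above 92.6%, Tshz1 above 73.1% and Tshz3 above 68.5% of genes tested.

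EU is built in where RNA carries uridine, so the uridine content of the transcripts was read from GENCODE M21. The longest transcript held 23.5% uridine for Tshz3 (1196 bases), 20.8% for Tshz2 (1059 bases) and 20.5% for Tshz1 (1161 bases). The median was 24.9% over 15529 genes with at least 10 counts in every library. All 3 members were below that median. The part of uridine content in the Tshz values was not tested.

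Loci inside the span of Tshz3 could share its reads, since neither the feature counted nor the strand setting is stated. The table lists 5 loci there, 4 of them unconfirmed transcribed loci (biotype TEC) on the same strand, and all 4 lie outside the exons of Tshz3 in GENCODE M21. Their counts summed to 395 over the 6 libraries, against 7612 for Tshz3. Gm38340, with the most, had 31, 27 and 43 counts in EU replicates 1, 2 and 3, against 8, 36 and 20 in PBS replicates 1, 2 and 3. E230020A03Rik had 18, 8 and 31 in EU, against 12, 0 and 16 in PBS, and Gm37827 had 9, 6 and 27 in EU, against 20, 31 and 8 in PBS. These 3 loci overlapped between the groups, and those tested did not pass. Gm37452 had 4, 2 and 17 counts in EU, against 17, 0 and 4 in PBS, and the 7SK copy on the opposite strand had 0. Before the start of Tshz3, 1759 bases away, Gm38285 had 14, 9 and 13 counts in EU, against 2, 0 and 12 in PBS.

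The other members had fewer neighbours of that kind. AY702102, the only locus overlapping Tshz2, lies on the opposite strand and had 0 counts, against 37470 for Tshz2. Gm34294, 4695 bases before Tshz2 on the opposite strand, had 20, 24 and 27 counts in EU replicates 1, 2 and 3, against 0, 0 and 21 in PBS replicates 1, 2 and 3. It did not pass (log2 fold 2.08, SE 1.33, edgeR adjusted p = 0.765). Zfp217, a zinc finger gene 36827 bases beyond Tshz2, averaged 4.86 CPM in EU and 5.14 CPM in PBS. No listed locus overlaps Tshz1. Its divergent neighbour Zadh2 starts 357 bases away and averaged 19.5 CPM in EU and 18.4 CPM in PBS (log2 fold 0.086, SE 0.134, edgeR adjusted p = 0.897). Zfp407, 40321 bases away, averaged 30.4 CPM in EU and 31.3 CPM in PBS.

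Among known partners and targets of teashirt proteins no gene passed. Of 16 listed genes 15 were tested, 9 with positive and 6 with negative log2 folds. The median was 0.033, beside 0.011 and 52.2% positive over all genes tested. Ctbp1 and Ctbp2 encode the co-repressors, and Ctbp1 averaged 129 ± 5.11 CPM in EU libraries and 118 ± 15.8 CPM in PBS libraries (SD, n = 3 each), while Ctbp2 had a log2 fold of -0.030. Apbb1, which encodes the adaptor FE65 that binds teashirt proteins in human cells, averaged 234 CPM in EU and 236 CPM in PBS, and Set, its partner there, averaged 140 in both. The histone deacetylase gene Hdac1 averaged 18.7 CPM in EU and 18.2 CPM in PBS, and Hdac2 averaged 49.9 and 51.8. Their log2 folds lay between -0.052 and 0.13.

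The homeobox factors of the Meis family, whose Drosophila counterpart acts with teashirt, did not pass either. Meis2 was the gene of the list with the highest log2 fold, 0.47 (SE 0.126, adjusted p = 0.322 by edgeR). It averaged 59.3 ± 9.51 CPM in EU libraries and 42.8 ± 5.59 CPM in PBS libraries (SD, n = 3 each), and its groups did not overlap. Meis3 did not overlap either, at 14.6 CPM in EU and 13.5 CPM in PBS, but its lowest EU value was 14.1 and its highest PBS value 14.0. Of the 15 tested genes of the list, 2 were higher in every EU library, where 8.52% of all genes tested were. Meis1 averaged 2.30 CPM in EU and 1.84 CPM in PBS, with overlap. Sox9, which mouse Tshz3 binds in the ureter, averaged 75.8 CPM in EU and 78.0 CPM in PBS, and Myocd, the smooth muscle coactivator, averaged 0.454 and 0.411 CPM. Casp4, a target repressed by the human proteins, was too low to test, with 24 counts in all.

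The other zinc finger homeobox genes gave a median log2 fold of -0.042, with 4 of 11 positive and 0 called. Zfhx4, a large zinc finger homeodomain protein gene, was the only gene of the list higher in every EU library, where 8.52% of all genes tested were. It averaged 25.8 ± 1.46 CPM in EU libraries and 21.5 ± 2.98 CPM in PBS libraries (SD, n = 3 each). Zeb2, Adnp, Zhx1 and Zhx3 were lower in every EU library, where 7.18% of all genes tested were. Zeb2, which encodes a transcriptional repressor, averaged 389 CPM in EU and 430 CPM in PBS, or -0.14 on the log2 scale (SE 0.057, adjusted p = 0.564 by edgeR).

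Genes whose log2 CPM followed each member most closely over the 6 libraries were taken from 11247 others with a mean of at least 5 CPM. For Tshz3 the 5 closest were Pcdh7, Epb41l3, Nwd2, Cyth1 and Gpr34, with Pearson's r of 0.982 to 0.995. Pcdh7, an adhesion protocadherin, had 134, 150 and 161 CPM in EU replicates 1, 2 and 3, against 114, 108 and 114 CPM in PBS replicates 1, 2 and 3. For Tshz2 they were Rian, Dcx, Rgs17, Rap1gap and Glra3 (0.983 to 0.989). Glra3, a glycine receptor subunit gene, had 6.27, 6.43 and 7.24 CPM in EU, against 2.55, 5.41 and 3.87 CPM in PBS, and was lowest in PBS replicate 1, as Tshz2 was. For Tshz1 they were E130308A19Rik, Pick1, N6amt1, Nt5c3 and Slc38a10 (0.990 to 0.997). Among members, r was 0.77 for Tshz3 with Tshz2, 0.44 for Tshz3 with Tshz1 and -0.20 for Tshz2 with Tshz1. These are descriptions over 6 libraries that include the contrast itself, picked as the highest of all those compared.

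Fewer cells of a type and less RNA per cell cannot be told apart in such bulk samples, so marker lists are given beside the members. Neocortical projection neurons, in which Tshz3 and Tshz2 are known to be active, were represented by 19 markers, of which 13 had positive log2 folds, with a median of 0.26 and 0 called. Their summed level was 1153 to 1230 CPM in EU and 1090 to 1213 CPM in PBS, with overlap. The 4 most abundant were Bcl11b (247 CPM in EU and 266 CPM in PBS), Etv1 (111 and 116), Rasgrf2 (111 and 109) and Tbr1 (96.9 and 73.0). Of the 19 markers, 5 were higher and 2 lower in every EU library, where 8.52% and 7.18% of all genes tested were. Named after their values were seen, Foxp2, Cux2, Lamp5 and Ccn2 were among those higher, and Crym and Hs3st4 were lower. Cux2, an upper layer regulator, averaged 85.2 ± 14.9 CPM in EU libraries and 56.9 ± 7.98 CPM in PBS libraries (SD, n = 3 each). The part of cortical RNA in the Tshz values was not tested.

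Markers of the subiculum and of near-projecting neurons, the cells that Tshz2 marks in cortex, gave no common direction. Of 11 genes 4 had positive log2 folds, with a median of -0.11, which was 0.14 without PBS replicate 2. Their summed level was 391 to 398 CPM in EU and 369 to 397 CPM in PBS. The most abundant were Lypd1 (83.0 CPM in EU and 93.0 CPM in PBS), Fn1 (94.0 and 78.3), Cxcl14 (71.3 and 62.3) and Ntng2 (44.7 and 50.8). Of the 11 genes, 3 were higher and 2 lower in every EU library, where 8.52% and 7.18% of all genes tested were. Named after their values were seen, the higher ones were Fn1, Cxcl14 and Vwc2l, and the lower ones Ntng2 and Zfpm2.

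Markers that define the labelled tissue were present in all libraries and mostly had lower values in EU. Of 12 pyramidal neuron markers 10 had negative log2 folds, with a median of -0.25, and summed levels of 1228 to 1357 CPM in EU and 1440 to 1545 CPM in PBS, which did not overlap. Nptx1 averaged 496 CPM in EU and 623 CPM in PBS, Mpped1 167 and 149, Wfs1 169 and 118, and Neurod6 112 and 127. Of 11 dentate granule neuron markers 10 had negative log2 folds, with a median of -0.17, and summed levels of 643 to 661 CPM in EU and 684 to 818 CPM in PBS, which did not overlap. Without PBS replicate 1 that median was -0.059. Prox1, the granule cell regulator, averaged 154 CPM in EU and 178 CPM in PBS, Dock10 113 and 119, Calb1 80.2 and 92.1, and Dsp 77.4 and 88.3. In neither list was a gene called, and their part in the Tshz values was not tested.

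Striatal markers, chosen because Tshz1 acts in striatal neurons, had 9 of 12 positive log2 folds and a median of 0.24, with summed levels of 176 to 193 CPM in EU and 173 to 198 CPM in PBS. Ppp1r1b averaged 51.6 CPM in EU and 54.7 CPM in PBS, Pde10a 74.7 and 85.3, and Penk 12.5 and 10.2. Thalamic markers had 4 of 5 positive log2 folds, with a median of 0.22. Their summed levels were 139.5 to 155 CPM in EU and 118 to 138.6 CPM in PBS, which did not overlap. Rora averaged 88.7 CPM in EU and 73.7 CPM in PBS, Prkcd 19.5 and 19.3, Tcf7l2 18.1 and 18.5, and Lef1 11.1 and 9.55. Cholinergic neurons, which express Tshz3 in the striatum, were near absent, with summed levels of 1.12 to 1.52 CPM in EU and 0.902 to 1.13 CPM in PBS. Of that list Slc5a7 alone was tested (log2 fold 0.66, SE 1.02, adjusted p = 0.896 by edgeR). Its log2 fold was 0.081 without PBS replicate 2, 1.26 without PBS replicate 1, 1.36 with the replicate block and 1.99 by limma voom.

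Of the remaining cell types, GABAergic interneuron markers had 9 of 12 positive log2 folds and a median of 0.053, with summed levels of 1312 to 1354 CPM in EU and 1217 to 1377 CPM in PBS, and Gad1 averaged 223 and 225. Astrocyte markers (7 of 8 positive), oligodendrocyte markers (5 of 8) and microglia markers (5 of 7) had medians of 0.046, 0.023 and 0.033. Endothelial markers (2 of 6 positive), smooth muscle and pericyte markers (4 of 8) and meningeal markers (5 of 8) had medians of -0.11, -0.017 and 0.083. Choroid plexus and ependymal markers had 0 of 8 positive and a median of -0.28, and their summed level ranged from 772 to 3743 CPM in EU and from 1716 to 5376 CPM in PBS. That median turned to 0.24 without PBS replicate 1 and to 0.073 without EU replicate 3. No gene of these lists was called.

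**Figure D3:**
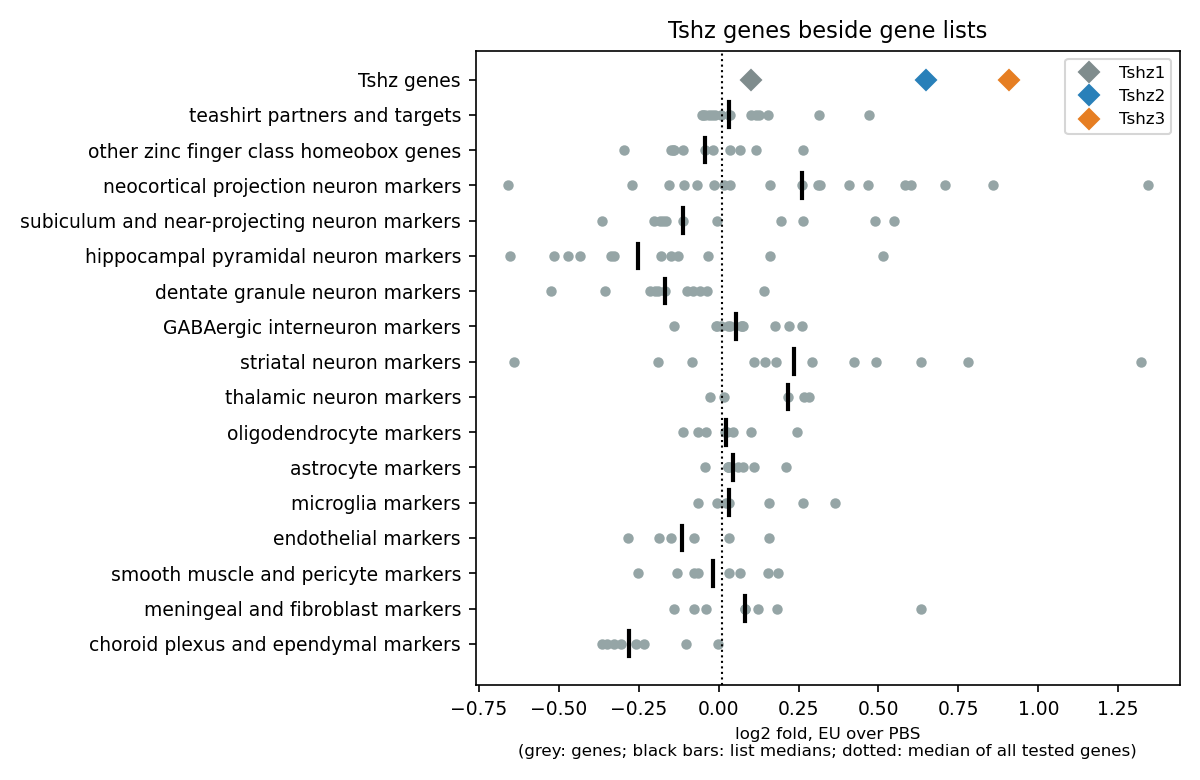
Log2 fold of EU over PBS (horizontal axis) for Tshz1, Tshz2 and Tshz3 (diamonds) and for the tested genes of each list (grey points), with black bars at list medians and a dotted line at the median of all genes tested, 0.011. Tshz3 at 0.91 and Tshz2 at 0.65 lie to the right of every list median shown, the highest of which is 0.26, and the cholinergic list, with 1 tested gene, is not drawn.

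The log2 folds of all 3 members kept a positive sign in each of 13 other settings of scaling, filter, tool, block and left-out library. That of Tshz3 ranged from 0.82 without EU replicate 3 to 1.03 without EU replicate 1, and was 0.85 without PBS replicate 2. That of Tshz2 ranged from 0.48 without PBS replicate 1 to 0.84 without PBS replicate 2, the library that stood apart from the others and in which Tshz2 was closest to EU. That of Tshz1 ranged from 0.0068 without PBS replicate 2 to 0.20 without PBS replicate 1. A sign that follows from groups that do not overlap is fixed by the choice of Tshz3 and Tshz2 and is no measure of stability.

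**Figure D4:**
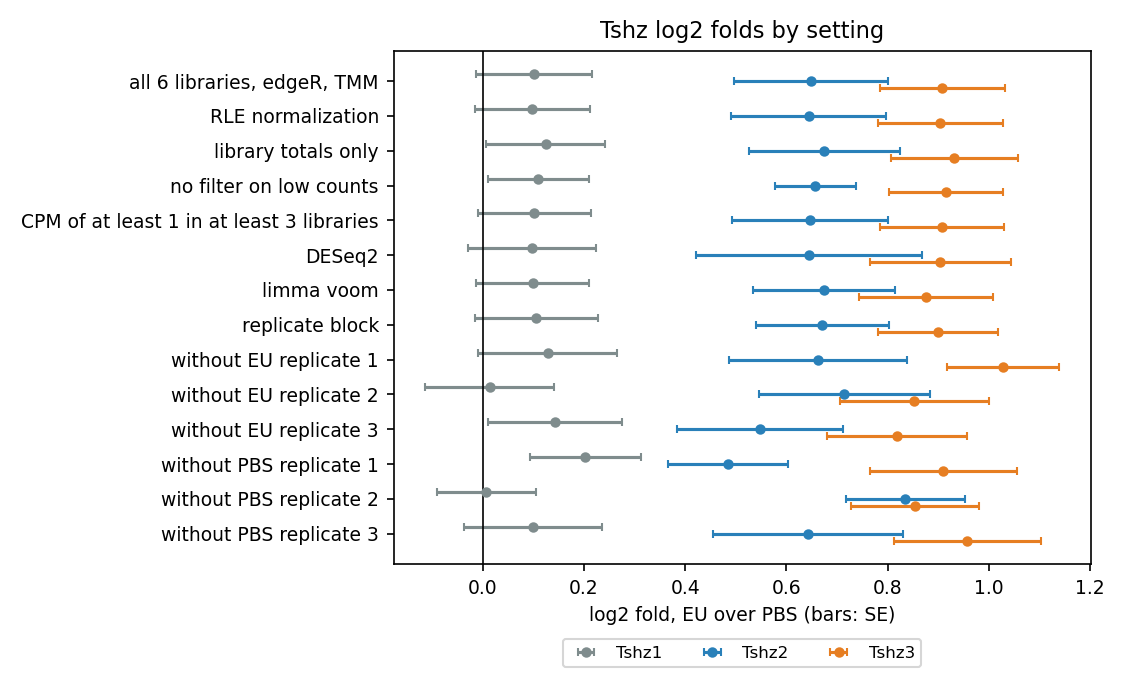
Log2 fold of EU over PBS with its SE for Tshz1, Tshz2 and Tshz3, with all 6 libraries and in 13 other settings. Tshz3 stays between 0.82 and 1.03, Tshz2 between 0.48 and 0.84, and Tshz1 between 0.0068 and 0.20.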

How the data were processed

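The authors deposited raw read counts per gene for 3 EU and 3 PBS libraries, grouped here by their titles. The submitters' processing notes name STAR 2.7.10b, featureCounts 2.0.1, bcl2fastq 2.20.0 and the build GRCm39. Neither they nor the labels state the annotation release, the strand setting or the feature counted. No pair of libraries agreed within sampling noise (lowest chi-square per degree of freedom 7.16). The 92 ERCC rows held 0 counts and were left out, and the table held 0 columns of other samples.

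The whole table was fitted with edgeR 4.0.16 in R 4.3.3 (quasi-likelihood test, filterByExpr, TMM, treatment only, Benjamini-Hochberg, two-sided, 0.05), after it was tested on simulated data. SE is the absolute log2 fold over the square root of F. Alternatives used DESeq2 1.42.0, limma voom 3.58.1, other scalings and filters, the replicate number as a block and each library left out. The members and lists were chosen with earlier results of these data known. Named were the members, loci within 100 kb, the 5 genes most alike to each member, genes of the partner and zinc finger homeobox lists, and the 4 most abundant genes of a marker list. Further neocortical and subicular markers were named after their values were seen. Lists are described by counts and medians. Transcripts, exon union lengths and exon overlaps came from GENCODE M21 (GRCm38), whose coordinates are not printed, and promoters from RefSeq. Protein sequences were not used here. Some listed genes are not reported here by name.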

Additional observations from a re-analysis of the deposited data

How the results depend on the processing

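Over all genes, edgeR called 0 with all 6 libraries, TMM and the filter, and also with RLE scaling, library totals or the stricter filter. It called 248 without a filter, 18 with the replicate block and 0 to 20 with a library left out, DESeq2 called 288 and limma voom 12. In 9 of the 13 settings 0 of 3 members were called, but in 7 of the 13 settings 0 genes were called at all. Also among those 9, limma voom called 0.0648% of genes tested and edgeR without EU replicate 1 called 0.00525%. Nothing is read from this count about the members. The cause of the differing gene counts was not tested. Same-numbered EU and PBS libraries had deviations from their group means correlated at 0.064, 0.024 and 0.098. Differently numbered libraries were not compared, so these values cannot decide whether replicate numbers pair the libraries. With a library left out, medians ranged from 0.00035 to 0.054 for teashirt partners, -0.089 to -0.020 for zinc finger homeobox genes, 0.13 to 0.36 for neocortical, -0.16 to 0.14 for subicular, 0.19 to 0.44 for striatal, 0.11 to 0.22 for thalamic, -0.19 to -0.059 for dentate, -0.55 to 0.24 for choroid plexus and -0.16 to -0.081 for endothelial markers. With library totals the partner median was 0.060 and the endothelial one -0.091. Of 17 lists, 7 had a median that changed sign in at least 1 setting. Over the 6 libraries Tshz2 averaged 26.6 CPM per kilobase of its longest transcript and 17.4 per kilobase of exon union. The number of libraries, 3 a group, limits the precision.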
